A study of Mus musculus with 11 samples.

Results

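The subject is the diet by arthritis interaction in the synovial membrane of mice, that is, whether collagen-induced arthritis (CIA) was accompanied by a different change in RNA levels on a high-fat diet than on a regular diet. For each gene the CIA-minus-sham difference on the regular diet was subtracted from the same difference on the high-fat diet, on the log2 scale. A positive interaction means that the CIA effect was higher on the high-fat diet, and a negative one that it was lower. The contrast used all 11 libraries and all 18804 genes of the deposited table, of which 14892 had enough counts to be tested and held 99.972% of the counts. Of the others, 507 had no count in any library and 3405 had too few.

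The mice were DBA/1, an inbred strain that is prone to this model, and the tissue was the synovial membrane, the lining of the joint. The 4 groups were sham mice on a regular diet (n = 3), CIA mice on a regular diet (n = 3), sham mice on a high-fat diet (n = 2) and CIA mice on a high-fat diet (n = 3). Replicates are named a, b and c. Groups follow each sample's treatment label. The growth notes name the regular diet for each of the 11 samples, also for the 5 whose treatment label is high-fat, and every value below rests on the treatment labels. Age, the length of the diet, the immunogen and the disease stage are not given in the sources used here, nor is it stated that replicates were separate mice. The p-values therefore reflect the spread between libraries only, and that spread could be technical.

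In CIA, immunisation against type II collagen leads to joint inflammation in which macrophages, neutrophils and synovial fibroblasts release cytokines and matrix-degrading proteases. The synovial lining borders on fat pads, so synovial samples also hold adipocytes, which store triglycerides and secrete hormones such as leptin and adiponectin. A high-fat diet is known to enlarge fat depots, to repress fatty acid synthesis and to dampen insulin signalling. In such bulk tissue, fewer cells of a type and less RNA per cell cannot be told apart.

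Library totals ranged from 13677638 to 17631167 counts. Lining and sublining fibroblast genes were present in every library, with Prg4 (lubricin) at 3976 to 20707 CPM (counts-per-million) and Thy1 at 10.3 to 136 CPM. Regular-diet CIA replicate b stood apart from its group. On the first principal component (53.7% of the variance) it lay at 64.7, against -24.4 and -40.6 for replicates a and c, 50.4 to 122 for the 3 high-fat CIA libraries and -63.9 to -19.99 for the 5 sham libraries. Replicate b was singled out by these values. Leaving it out keeps replicates a and c, which lay within the range of the shams on that component. Larger interactions and smaller p-values without replicate b can follow from that choice alone and are no separate evidence. Replicate b enters the regular-diet CIA mean. Where leaving it out moved the interaction of a named gene or the median of a list described below by over 1.5 times, the value without it is given beside the first. Summed over the skeletal muscle list, regular-diet sham replicate c held 1550 CPM against 69.7 to 408 in the others. Summed over the neutrophil list, high-fat sham replicates a and b held 2604 and 45.0 CPM.

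No gene passed an adjusted p of 0.05 for the interaction in edgeR's quasi-likelihood test (0% of 14892 genes). The smallest adjusted p was 0.864 and was shared by 10 genes. At an unadjusted p under 0.05 the interaction was positive for 231 genes (1.55%) and negative for 404 (2.71%), 4.26% of genes in all. The typical precision was low: the median 95% interval of a gene reached 0.96 on the log2 scale to either side of its value, or 1.94-fold. The middle 50% of the interactions, between the 25th and 75th percentiles, lay between -0.35 and 0.29. DESeq2 called 22 genes from the same counts, 9 positive and 13 negative, and 822 at an unadjusted p under 0.05. limma voom called 0, with 592 at an unadjusted p under 0.05. A missed threshold does not show that the CIA effects on both diets were alike.

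The effects of which the interaction is the difference were unequal in number of calls. CIA against sham gave 4 genes on the regular diet (0.0269%) and 1610 on the high-fat diet (10.8%). High-fat against regular diet gave 0 genes in sham mice (0%) and 588 in CIA mice (3.95%). A gene called on one diet and not on the other is not thereby shown to differ between them, and 0 of them passed the test of that difference in edgeR. The CIA effects on the 2 diets share no library. Across genes, which are not independent replicates, they correlated at Pearson's r = 0.768 and Spearman's rho = 0.750 and had the same sign in 77.8% of genes. The SD of the effect across genes was 0.83 on the regular and 1.10 on the high-fat diet. For 54.1% of all tested genes both CIA effects had the same sign and that on the high-fat diet was larger in size, for 23.7% the sign was the same and that on the regular diet was larger, and for 22.2% the signs were opposite. Among the 231 genes with a positive interaction at an unadjusted p under 0.05 these shares were 71.4%, 1.7% and 26.8%, and among the 404 with a negative one they were 68.8%, 1% and 30.2%. Those genes were chosen by the difference of the same 2 effects. Their shares follow in part from that choice and are no separate evidence of a larger CIA effect on the high-fat diet.

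**Figure D1:**
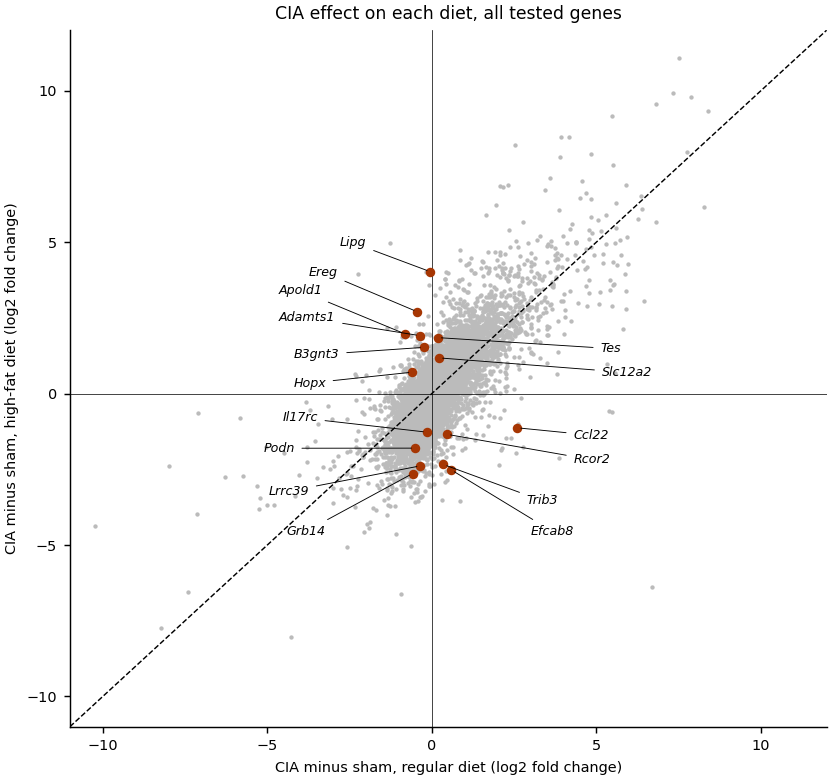
CIA effect of each of 14892 tested genes on the regular diet (x axis, log2 fold change) and on the high-fat diet (y axis, log2 fold change). The dashed line marks equal effects, so that distance above or below it is the interaction, and the 16 named genes (red) are those with the smallest unadjusted interaction p among the more abundant named genes. Both effects correlated across genes (Pearson's r = 0.768), which does not measure distance from the line. Ccl22 lies below the line at 2.60 on the regular and -1.13 on the high-fat diet.

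The genes with the smallest unadjusted interaction p are described next, 8 with a negative and 8 with a positive interaction. They were ranked by that p, and their values are a description. None passed the adjusted threshold in edgeR, whose adjusted p is given beside each gene. DESeq2 called 15 of the 16, all but Tes, and 22 of all 14892 tested genes. It used the same counts that ranked the 16, so these calls are no separate support. Values of a gene are given in CPM, with replicates in the order a, b, c.

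Ccl22 (gene ID 20299) encodes a chemokine of macrophages and dendritic cells that attracts CCR4-bearing T cells. Its level was 0.557, 1.33 and 0.918 CPM in regular-diet sham and 4.92, 6.22 and 6.11 CPM in regular-diet CIA. On the high-fat diet it was 5.77 and 4.20 CPM in sham and 2.79, 2.71 and 1.32 CPM in CIA. Sham and CIA libraries did not overlap on either diet, with CIA higher on the regular and lower on the high-fat diet. The interaction was -3.73 ± 0.60 SE on the log2 scale (95% interval -5.06 to -2.40, unadjusted p = 9.28e-05, adjusted p = 0.864). It is the smallest unadjusted p of all genes, and it was -3.66 without regular-diet CIA replicate b. The levels are low, a few CPM in each library.

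Grb14 and Trib3 are known to act on insulin signalling. Grb14 (gene ID 50915) encodes an adaptor that binds the activated insulin receptor and inhibits it. It stood at 74.4, 64.0 and 44.5 CPM in regular-diet sham and 42.5, 32.1 and 47.5 CPM in regular-diet CIA. In high-fat sham it stood at 116 and 117 CPM and in high-fat CIA at 17.3, 13.4 and 25.4 CPM. The high-fat sham libraries were the highest and the high-fat CIA libraries the lowest of all 11, and the interaction was -2.06 ± 0.40 SE (adjusted p = 0.864). Trib3 (gene ID 228775), a pseudokinase induced by nutrient and endoplasmic reticulum stress that binds AKT, stood at 8.72 to 12.96 CPM in regular-diet sham and 6.81 to 20.1 CPM in regular-diet CIA. It was at 39.9 and 36.5 CPM in high-fat sham and at 5.88, 8.26 and 8.47 CPM in high-fat CIA. Only the high-fat sham libraries stood out among these, and the interaction was -2.69 ± 0.52 SE (adjusted p = 0.864).

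Rcor2 (gene ID 104383), a corepressor that works with the histone demethylase LSD1, had the same order. It was at 19.2 and 20.03 CPM in high-fat sham and between 6.56 and 13.5 CPM in the other 9 libraries, with an interaction of -1.81 ± 0.36 SE (adjusted p = 0.864). Efcab8 (gene ID 100504221), an EF-hand protein, was at 5.56 and 5.26 CPM in high-fat sham and 0.582, 1.21 and 1.02 CPM in high-fat CIA. On the regular diet it was at 2.31 to 2.75 CPM in sham and 1.96 to 6.31 CPM in CIA, which overlapped, and the interaction was -3.12 ± 0.66 SE (adjusted p = 0.919).

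In another 3 negative genes the sham libraries of both diets lay close together and the high-fat CIA libraries were the lowest. Podn (gene ID 242608) encodes podocan, a leucine-rich proteoglycan of the extracellular matrix. It was at 153, 183 and 188 CPM in regular-diet sham, 182 and 196 CPM in high-fat sham, 120, 122 and 126 CPM in regular-diet CIA and 48.1, 54.1 and 60.4 CPM in high-fat CIA. CIA libraries were below sham libraries on both diets. The CIA effect was -0.51 ± 0.15 SE on the regular diet (adjusted p = 0.185) and -1.80 ± 0.16 SE on the high-fat diet (adjusted p = 0.00934). The interaction was -1.29 ± 0.22 SE (unadjusted p = 0.00016, adjusted p = 0.864). Il17rc (gene ID 171095) encodes a subunit of the receptor for the cytokines IL-17A and IL-17F. It was at 28.5 to 37.8 CPM in the 8 libraries outside high-fat CIA and at 15.01, 14.4 and 16.4 CPM in high-fat CIA, with an interaction of -1.12 ± 0.22 SE (adjusted p = 0.864). Lrrc39 (gene ID 109245), a leucine-rich repeat protein of striated muscle, was at 13.9 to 30.1 CPM outside high-fat CIA and at 3.55, 4.70 and 6.19 CPM in it. Its interaction was -2.04 ± 0.41 SE (adjusted p = 0.864). Regular-diet sham replicate c, with the largest muscle list sum, held 26.5 CPM of Lrrc39 against 30.1 and 29.1 in replicates a and b. In regular-diet CIA, Lrrc39 was at 25.4, 13.9 and 28.1 CPM and the adipocyte list sum at 26750, 10610 and 34190 CPM. The part of muscle or adipocyte content in Lrrc39 was not tested.

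**Figure D2:**
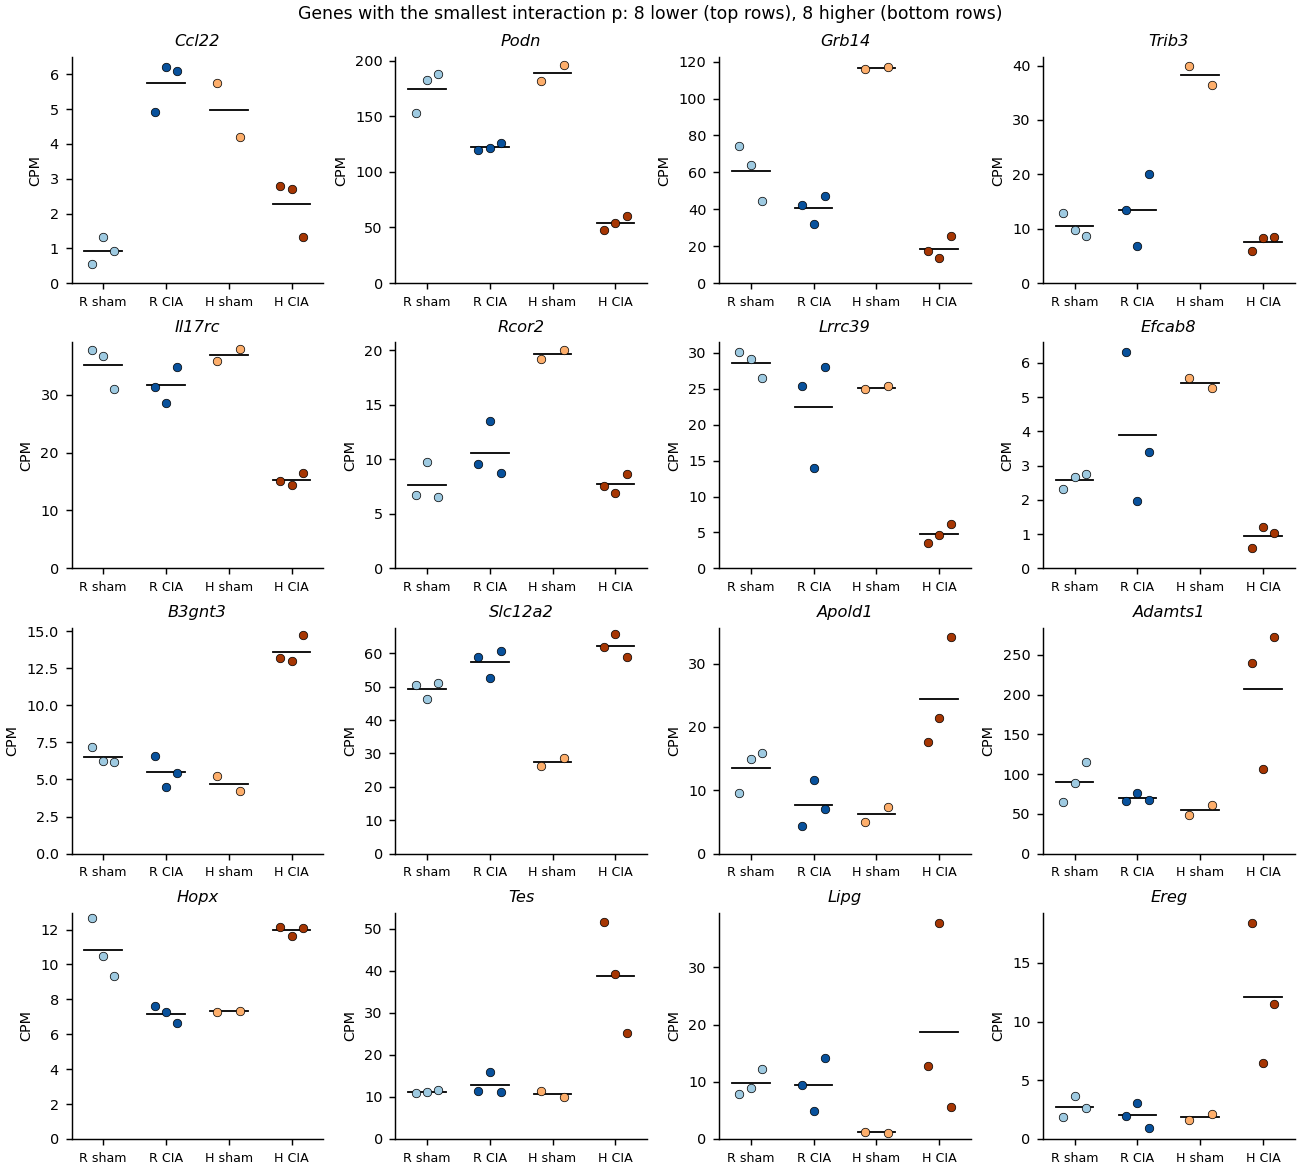
Level in each library (points, CPM, linear axes from 0) and group mean (line) of the 16 genes with the smallest unadjusted interaction p. R sham and R CIA are the regular-diet groups (n = 3 each), H sham (n = 2) and H CIA (n = 3) the high-fat groups. In Podn, Il17rc and Lrrc39 the high-fat CIA libraries are the lowest of all, and in B3gnt3, Apold1, Tes and Ereg the highest.

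Among the positive genes, B3gnt3 (gene ID 72297) encodes a glycosyltransferase that extends O-linked glycans, including those that selectins bind. It was at 6.16 to 7.16 CPM in regular-diet sham, 4.52 to 6.57 CPM in regular-diet CIA and 5.23 and 4.20 CPM in high-fat sham. In high-fat CIA it was at 13.2, 12.96 and 14.7 CPM, above all other libraries, and the interaction was 1.77 ± 0.34 SE (adjusted p = 0.864). Slc12a2 (gene ID 20496), the sodium-potassium-chloride cotransporter NKCC1, was the lowest in high-fat sham, at 26.2 and 28.7 CPM. It was at 46.5 to 51.0 CPM in regular-diet sham, 52.6 to 60.8 CPM in regular-diet CIA and 58.9 to 65.7 CPM in high-fat CIA. The interaction was 0.96 ± 0.19 SE (adjusted p = 0.864).

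Apold1 (gene ID 381823), an early response gene of endothelial cells, was at 9.54, 14.98 and 15.9 CPM in regular-diet sham and 4.36, 11.6 and 7.07 CPM in regular-diet CIA. On the high-fat diet it was at 5.02 and 7.42 CPM in sham and 17.7, 21.4 and 34.2 CPM in CIA. The groups overlapped on the regular diet and not on the high-fat diet, and the interaction was 2.79 ± 0.60 SE (adjusted p = 0.919). Adamts1 (gene ID 11504) encodes a secreted metalloprotease that cleaves the cartilage proteoglycan aggrecan. It was at 65.5, 88.9 and 115 CPM in regular-diet sham and 66.6, 76.1 and 67.2 CPM in regular-diet CIA. In high-fat sham it was at 48.1 and 61.5 CPM and in high-fat CIA at 240, 107 and 273 CPM, with an interaction of 2.28 ± 0.50 SE (adjusted p = 0.919). High-fat CIA replicate b lay within the range of regular-diet sham. The 250 bases before the start of both genes are shown because both hold the letters TATAAA, in capitals, 32 bases before the start. They are from RefSeq (GRCm38.p6, the strand of the gene, 5′ to 3′), Apold1 from chr6:134981751-134982000 on the plus strand and Adamts1 from chr16:85803114-85803363 on the minus strand.
Apold1: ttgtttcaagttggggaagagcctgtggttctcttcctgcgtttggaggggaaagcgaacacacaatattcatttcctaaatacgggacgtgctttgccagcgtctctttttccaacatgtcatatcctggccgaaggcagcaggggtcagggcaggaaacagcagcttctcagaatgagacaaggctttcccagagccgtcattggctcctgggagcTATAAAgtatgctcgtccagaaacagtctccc
Adamts1: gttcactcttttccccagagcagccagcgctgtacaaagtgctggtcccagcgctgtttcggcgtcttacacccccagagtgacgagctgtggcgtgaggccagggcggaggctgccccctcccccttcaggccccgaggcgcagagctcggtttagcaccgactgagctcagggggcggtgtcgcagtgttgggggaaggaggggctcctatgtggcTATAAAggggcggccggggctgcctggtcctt
On either strand, TATAAA occurs in this window in 12.97% of 27025 RefSeq promoters, and in 3 of the 13 leading genes of 16 that had an entry. A match is a description of letters.

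The other 4 positive genes differed in how much their libraries spread. Hopx (gene ID 74318), a small homeodomain protein that does not bind DNA, was lower in CIA than in sham on the regular diet (7.64, 7.26 and 6.62 against 12.7, 10.5 and 9.31 CPM). On the high-fat diet it was higher in CIA than in sham (12.2, 11.6 and 12.1 against 7.26 and 7.36 CPM), with no overlap on either diet and an interaction of 1.30 ± 0.29 SE (adjusted p = 0.957). Tes (gene ID 21753), a LIM-domain protein of focal adhesions, was at 9.99 to 15.8 CPM in the other 3 groups and at 51.7, 39.2 and 25.2 CPM in high-fat CIA (interaction 1.67 ± 0.40 SE, adjusted p = 0.989). Lipg (gene ID 16891), the endothelial lipase that acts on phospholipids of high-density lipoprotein, was lowest in high-fat sham at 1.28 and 0.993 CPM. It was at 7.87 to 12.3 CPM in regular-diet sham, 4.84 to 14.1 CPM in regular-diet CIA and 12.8, 37.7 and 5.53 CPM in high-fat CIA (interaction 4.07 ± 1.00 SE, adjusted p = 0.989). Ereg (gene ID 13874), which encodes epiregulin, a ligand of the epidermal growth factor receptor, was at 0.964 to 3.68 CPM in the other 3 groups and at 18.4, 6.45 and 11.5 CPM in high-fat CIA (interaction 3.15 ± 0.77 SE, adjusted p = 0.989).

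In 36 genes (0.242% of those tested) the sham and CIA libraries did not overlap on either diet and the direction was opposite on the 2 diets. The CIA effect was higher on the high-fat diet in 12 of them and lower in 24, and 22 had an unadjusted p under 0.05. With 2 or 3 libraries in a group, random order alone can separate groups in this way, so the count shows no effect. Of those 22, 7 positive and 11 negative ones were named genes with a mean log2 CPM of 1 or more. Among these, besides Hopx and Ccl22, the largest interactions with a positive sign were those of Aplp1, a relative of the amyloid precursor protein (1.55 ± 0.45 SE), Lrp12, a member of the low-density lipoprotein receptor family (0.74 ± 0.25 SE), and Glb1, the lysosomal beta-galactosidase (0.69 ± 0.24 SE). Glb1 was at 32.2 to 37.9 CPM in regular-diet sham and 21.5 to 28.7 CPM in regular-diet CIA, and at 23.0 and 21.6 CPM in high-fat sham and 24.1 to 28.4 CPM in high-fat CIA. Its CIA effect on the high-fat diet was small, 0.22 ± 0.18 SE. The largest with a negative sign were those of Sema5b, a semaphorin that guides axons (-1.49 ± 0.46 SE), Adat2, the catalytic subunit of a tRNA-editing deaminase (-0.96 ± 0.42 SE), and Gemin8, a subunit of the complex that assembles spliceosomal particles (-0.84 ± 0.38 SE). The adjusted p of these 6 genes was 0.989. Lep, Clu and the other genes below are members of 37 gene lists, whose median interaction is set beside that of all tested genes, -0.02. Over the 635 list memberships tested, 0 were called in edgeR, 11 had a positive and 19 a negative interaction at an unadjusted p under 0.05. Over all 14892 tested genes these were 231 (1.55%) and 404 (2.71%), shares close to those of the list memberships. Without regular-diet CIA replicate b 1129 genes had a positive and 1291 a negative interaction at that threshold, 16.3% of 14808. Counts of list members without replicate b stand beside that larger share. DESeq2 called 4 list members, Ccl22, Grb14, Adamts1 and Dgat2, against 22 of all 14892 tested genes. A few list members had no count in any library of a group, and medians and signs of their lists are given over the members with a count in every group.

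The interaction was negative for all 17 tested adipocyte markers, with a median of -1.18 and 3 at an unadjusted p under 0.05, which were 7 without regular-diet CIA replicate b (median -1.52). The hormone gene Lep was at 173, 238 and 150 CPM in regular-diet sham and 172, 39.4 and 244 CPM in regular-diet CIA. In high-fat sham it was at 437 and 472 CPM and in high-fat CIA at 17.7, 51.1 and 62.3 CPM. High-fat sham was the highest group, and all high-fat CIA libraries lay below regular-diet CIA replicates a and c, while replicate b lay among them. The interaction of Lep was -3.08 ± 0.89 SE (adjusted p = 0.989) and -3.53 without replicate b (adjusted p = 0.0916). Pparg, the nuclear receptor that drives adipocyte differentiation, was at 224 to 243 CPM in regular-diet sham, 236, 83.8 and 277 CPM in regular-diet CIA, 198 and 224 CPM in high-fat sham and 26.5, 67.5 and 58.6 CPM in high-fat CIA (interaction -1.83 ± 0.64 SE, adjusted p = 0.989). Plin1, which coats the adipocyte's lipid droplet, had an interaction of -2.19 ± 0.84 SE, and Adipoq, which encodes adiponectin, one of -1.27 ± 0.86 SE (adjusted p = 0.989 each). Summed over the adipocyte list, the libraries held 37090 to 48890 CPM in regular-diet sham, 26750, 10610 and 34190 CPM in regular-diet CIA, 18910 and 22930 CPM in high-fat sham and 2408, 9639 and 7714 CPM in high-fat CIA. The part of adipocyte content in the lipid gene values that follow was not tested.

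Of the 19 genes of fatty acid and triglyceride synthesis, 17 had a negative interaction (median -0.87, 2 at an unadjusted p under 0.05, and 9 without replicate b with a median of -1.30). This list differed from the adipocyte markers in the sham groups. Its summed level was 37410 to 47450 CPM in regular-diet sham and 8115 and 9974 CPM in high-fat sham, with a median diet effect in sham of -2.08. In CIA it was at 66420, 15730 and 58900 CPM on the regular and 1745, 3786 and 6369 CPM on the high-fat diet. The 2 members were Dgat2 and Agpat2, both acyltransferases of triglyceride synthesis. Dgat2 was at 755, 876 and 938 CPM in regular-diet sham and 921, 322 and 1204 CPM in regular-diet CIA. It was at 736 and 814 CPM in high-fat sham and 74.1, 151 and 142 CPM in high-fat CIA, and the interaction was -2.59 ± 0.65 SE (adjusted p = 0.989). Agpat2 had an interaction of -1.58 ± 0.59 SE. The synthesis enzymes Fasn (-0.95 ± 1.04 SE), Acaca (-0.87 ± 0.91 SE) and Scd1 (-1.54 ± 1.00 SE) had wide errors. They differed more by diet than by the interaction, with a diet effect in sham of -3.09 for Fasn, -2.61 for Acaca and -2.40 for Scd1, none of them called.

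Most genes that release or burn fat had negative interactions too. Of the 14 genes of lipolysis and lipid droplets 11 were negative (median -1.07, without replicate b -1.46), among them Plin4, a lipid droplet protein, at -2.05 ± 0.77 SE. Of the 21 genes of fatty acid oxidation 20 were negative (median -0.54), with 0 at an unadjusted p under 0.05. Without replicate b 15 of them had a negative interaction at an unadjusted p under 0.05, and the median was -0.87. Over all genes 16.3% passed that threshold in either direction without it. All 19 genes of branched-chain amino acid degradation were negative (median -0.86), 1 of them at an unadjusted p under 0.05 and 17 without replicate b (median -1.12). Mccc1, a subunit of the carboxylase in leucine breakdown, was at 155 to 188 CPM in regular-diet sham, 167, 69.0 and 179 CPM in regular-diet CIA, 133 and 141 CPM in high-fat sham and 18.6, 44.6 and 57.9 CPM in high-fat CIA (interaction -1.47 ± 0.62 SE, adjusted p = 0.989). The oxidative phosphorylation genes were evenly divided, 12 positive and 12 negative with a median of 0.01, which was -0.21 without replicate b.

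Of the 21 genes of cholesterol synthesis and uptake 16 were negative (median -0.25), and 3 had an unadjusted p under 0.05. Without replicate b the median was -0.50, with 7 negative and 1 positive at an unadjusted p under 0.05 (16.3% of all genes). The 3 genes were Sc5d (-1.24 ± 0.40 SE) and Lss (-1.24 ± 0.43 SE), enzymes late in the pathway, and Insig1 (-1.27 ± 0.43 SE), which retains the sterol sensor SCAP in the endoplasmic reticulum. Insig1 was at 200 to 279 CPM in regular-diet sham, 234, 119 and 286 CPM in regular-diet CIA, 178 and 190 CPM in high-fat sham and 58.4, 79.1 and 68.7 CPM in high-fat CIA. Of the 16 genes of insulin signalling and glucose uptake 11 were negative (median -0.33, without replicate b -0.59). Akt2, the AKT kinase of insulin-responsive tissues, was at 479 to 560 CPM in regular-diet sham, 467, 225 and 559 CPM in regular-diet CIA, 510 and 565 CPM in high-fat sham and 151, 214 and 224 CPM in high-fat CIA (interaction -1.17 ± 0.47 SE, adjusted p = 0.989). Otop1, a proton channel of brown fat, was the 1 gene of the 12 in the brown and beige fat list with an unadjusted p under 0.05, with an interaction of -2.01 ± 0.63 SE. That list was divided, with 8 negative and 4 positive members (median -0.39, without replicate b -0.72), and its highest was Dio2 at 1.84 ± 0.93 SE.

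**Figure D3:**
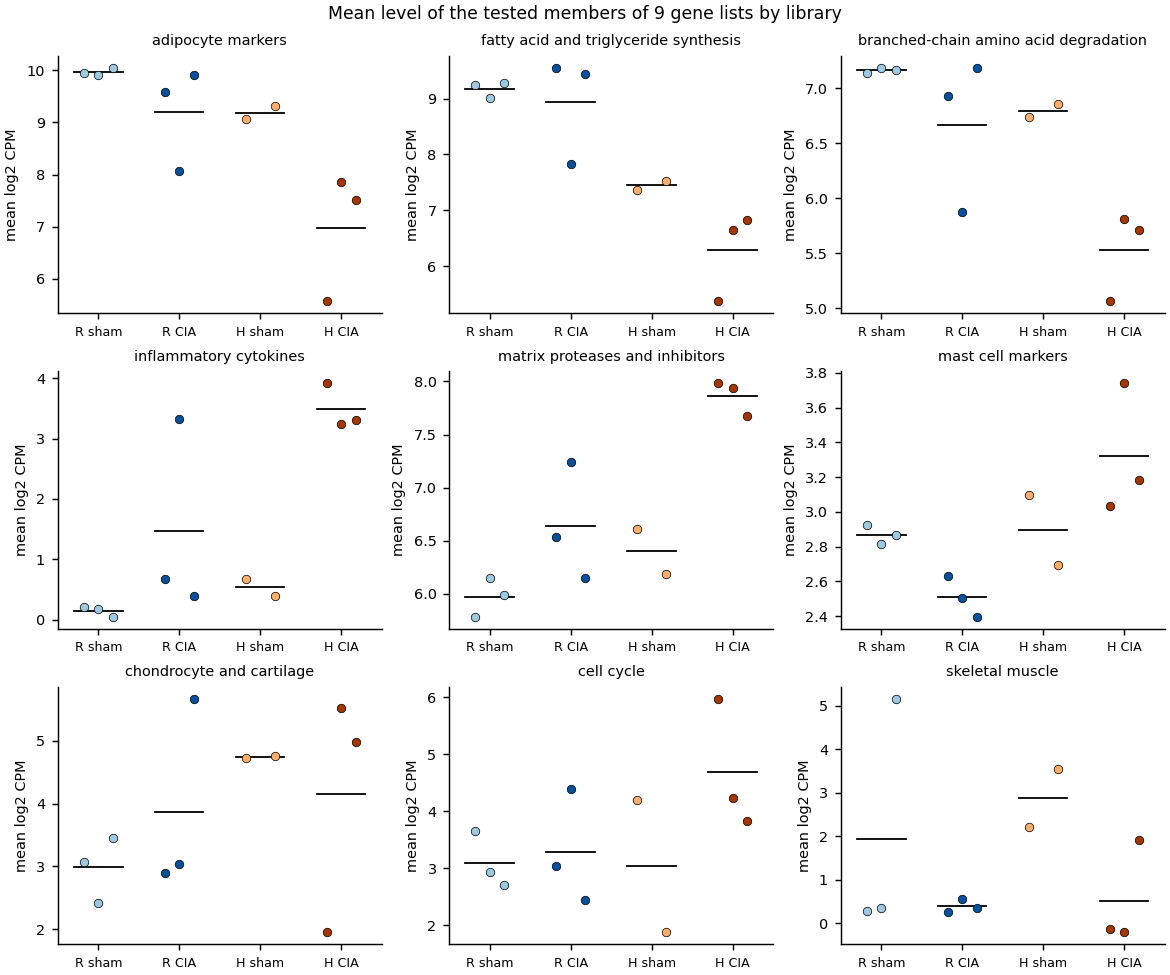
Mean log2 CPM over the tested members of 9 gene lists in each library (points) with group means (lines), R for regular and H for high-fat diet. Regular-diet CIA replicate b, the middle point of its group, is at 8.08 for adipocyte markers against 9.59 and 9.92 in replicates a and c, and at 3.32 for inflammatory cytokines against 0.68 and 0.39. The skeletal muscle panel shows regular-diet sham replicate c at 5.16.

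In several inflammatory genes the interaction depended strongly on replicate b of regular-diet CIA. That of Il1b and Mmp3 also moved when some other libraries were left out, as given in the last section. The cytokine Il1b was at 1.19, 1.46 and 0.852 CPM in regular-diet sham and 4.80, 163 and 1.93 CPM in regular-diet CIA. In high-fat sham it was at 3.26 and 1.34 CPM and in high-fat CIA at 174, 323 and 47.7 CPM. Replicate b lay among the high-fat CIA libraries and replicates a and c near the shams. The interaction of Il1b was 0.71 ± 2.15 SE with all libraries and 4.77 ± 1.21 SE without replicate b (adjusted p = 0.990 and 0.142). Mmp3, stromelysin, which degrades proteoglycan and activates other proteases, was at 57.6, 1609 and 12.3 CPM in regular-diet CIA, 25.1 to 66.2 CPM in the 5 shams and 2013, 800 and 773 CPM in high-fat CIA. Its interaction was 0.37 ± 1.87 SE with all libraries and 4.37 ± 0.96 SE without replicate b (adjusted p = 0.995 and 0.110).

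The other inflammatory genes followed the same libraries to different degrees. Ptgs2, the inducible cyclooxygenase, had an interaction of 1.43 ± 1.48 SE and of 3.74 ± 0.77 SE without replicate b (adjusted p = 0.0961). Il6 was at 0.126, 16.0 and 0.193 CPM in regular-diet CIA and 52.6, 3.56 and 103 CPM in high-fat CIA, with an interaction of 3.70 ± 3.95 SE and of 8.73 ± 3.33 SE without replicate b (95% interval 1.19 to 16.3, adjusted p = 0.246). Ccl2, which attracts monocytes, was at 3.47, 23.0 and 2.31 CPM in regular-diet CIA and 218, 15.3 and 107 CPM in high-fat CIA, with an interaction of 2.78 ± 1.47 SE and of 4.51 ± 1.28 SE without replicate b (adjusted p = 0.163). In Il6 and Ccl2, high-fat CIA replicate b lay below regular-diet CIA replicate b. Tnf had an interaction of 1.29 ± 1.16 SE and of 1.96 ± 1.17 SE without replicate b. Mmp13, the collagenase of type II collagen, had one of -0.90 ± 1.498 SE, and of 1.01 ± 1.21 SE without replicate b. Of 15 tested inflammatory cytokines 13 had a count in every group, and 12 of these had a positive interaction, with a median of 0.84, which was 3.83 without replicate b. Of 26 chemokines with a count in every group 18 were positive (median 0.54, without replicate b 1.34). Ccl9, a chemokine of myeloid cells, was at 163, 123 and 87.0 CPM in high-fat CIA, against 26.7 to 63.4 CPM in the other groups (interaction 1.01 ± 0.45 SE, adjusted p = 0.989). Of 23 genes of NF-kappa-B feedback and early response 15 were positive (median 0.25, without replicate b 1.17).

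The genes of antigen presentation and of interferon response had negative medians with all libraries. Of 10 MHC class II genes 8 had a negative interaction (median -0.34, without replicate b -0.16 with 6 negative), and their median CIA effect was 1.21 on the regular and 0.98 on the high-fat diet. Of 25 interferon response genes 14 were negative (median -0.25), and without replicate b 12 were negative and 13 positive (median 0.03). The serine protease inhibitors Serpina3i, Serpina3g and Serpina3f were among the 4 genes called in CIA on the regular diet. Serpina3i was at 20.6, 23.2 and 13.1 CPM in regular-diet CIA and 47.1, 25.4 and 26.4 CPM in high-fat CIA, against 1.05 to 1.92 CPM in the 5 shams. The interaction was 0.63 ± 0.53 SE for Serpina3i, -0.89 ± 0.63 SE for Serpina3g and -1.92 ± 0.86 SE for Serpina3f (adjusted p = 0.989 each). They are similar genes of 1 family, and the division of reads between them is uncertain.

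Matrix genes leaned to positive interactions. Of 24 matrix proteases and inhibitors 19 were positive (median 0.61) and 4 had an unadjusted p under 0.05, each with a positive interaction. Without replicate b the median was 1.07, with 11 positive and 1 negative at an unadjusted p under 0.05 (16.3% of all genes). Adamts12, a metalloprotease that cleaves cartilage oligomeric matrix protein, was at 35.1 to 51.9 CPM in regular-diet sham, 57.7 to 99.6 CPM in regular-diet CIA, 28.3 and 33.8 CPM in high-fat sham and 103 to 140 CPM in high-fat CIA. CIA libraries were above shams on both diets, and the interaction was 1.26 ± 0.36 SE (adjusted p = 0.989). Plaur, the urokinase receptor that focuses plasmin at the cell surface, was at 7.70, 27.0 and 12.4 CPM in regular-diet CIA and 57.6, 51.8 and 30.0 CPM in high-fat CIA, with an interaction of 1.5 ± 0.61 SE. Of 24 collagen and matrix genes 19 were positive (median 0.50), with 0 at an unadjusted p under 0.05. Without replicate b the median was 0.99, and 12 were positive at an unadjusted p under 0.05.

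All 15 cartilage genes had a negative interaction (median -1.46), and 13 had one without replicate b (median -1.51). Acan, which encodes aggrecan, was at 8.59, 8.06 and 15.9 CPM in regular-diet sham and 17.5, 169 and 273 CPM in regular-diet CIA. It was at 65.2 and 86.2 CPM in high-fat sham and 34.0, 193 and 128 CPM in high-fat CIA, with an interaction of -3.17 ± 1.23 SE (adjusted p = 0.989). The summed cartilage list differed within groups, with 970, 1136 and 3932 CPM in regular-diet CIA and 618, 2344 and 2609 CPM in high-fat CIA. The part of cartilage content was not tested. Clu, a secreted chaperone of the synovial fibroblast list, was at 810 CPM in regular-diet CIA replicate c and at 265 and 218 CPM in replicates a and b. Replicate c had the largest cartilage sum of its group. Its synovial fibroblast sum was the largest too, at 18070 CPM against 13400 and 6660 CPM in a and b. The part of either in Clu was not tested. Clu was at 222 to 267 CPM in regular-diet sham, 583 and 763 CPM in high-fat sham and 114, 318 and 302 CPM in high-fat CIA (interaction -2.29 ± 0.76 SE, adjusted p = 0.989).

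Among cell type markers, all 8 tested mast cell genes had a positive interaction (median 1.05, without replicate b 7 of 8 and 0.90). Those of Gata2 (0.01 ± 0.26 SE) and Kit (0.05 ± 0.42 SE) were near 0, and 2 members had an unadjusted p under 0.05. Mcpt4, a chymase of connective tissue mast cells, was at 13.4, 9.01 and 11.2 CPM in regular-diet sham and 2.97, 3.27 and 3.73 CPM in regular-diet CIA. On the high-fat diet it was at 11.4 and 8.0 CPM in sham and 6.75, 5.85 and 8.23 CPM in CIA. CIA was lower without overlap on the regular diet and overlapped with sham on the high-fat diet, and the interaction was 1.26 ± 0.39 SE (adjusted p = 0.989). The tryptase gene Tpsb2 was at 8.31 to 11.5 CPM in regular-diet sham, 5.49, 2.03 and 3.73 CPM in regular-diet CIA, 10.04 and 8.12 CPM in high-fat sham and 10.1, 5.85 and 8.95 CPM in high-fat CIA (1.30 ± 0.54 SE). Of 16 resident and alternatively activated macrophage genes 13 were negative (median -0.67). The 3 positive ones were Arg1 (4.56 ± 3.11 SE), Chil3 (0.98 ± 1.96 SE) and Cd209f (0.29 ± 0.78 SE), all with wide errors. The lectin Mgl2 was at 17.7 to 21.7 CPM in the 5 shams, 18.1, 4.12 and 13.5 CPM in regular-diet CIA and 0.873, 5.61 and 3.003 CPM in high-fat CIA (-1.995 ± 0.89 SE). Retnla, a secreted product of alternatively activated macrophages, was at 39.5 to 113 CPM in the shams, 26.6, 6.87 and 29.0 CPM in regular-diet CIA and 0.175, 6.63 and 1.08 CPM in high-fat CIA (-2.34 ± 1.27 SE). The 17 general macrophage and monocyte markers were divided, 9 positive and 8 negative with a median of 0.15, which was 0.28 without replicate b.

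Leukocyte capture and complement reception had single members at an unadjusted p under 0.05. Selp, the adhesion molecule P-selectin of activated endothelium and platelets, was at 2.47 to 10.1 CPM in the shams, 15.6, 54.6 and 19.4 CPM in regular-diet CIA and 185, 105 and 167 CPM in high-fat CIA. It was higher in CIA than in sham on both diets without overlap, with an interaction of 2.01 ± 0.83 SE (adjusted p = 0.989). Of the 16 endothelial genes 14 were positive (median 0.35, without replicate b 0.53). C5ar1, the receptor of the complement fragment C5a, was at 9.91, 23.6 and 12.02 CPM in regular-diet CIA and 48.4, 86.4 and 27.7 CPM in high-fat CIA (1.55 ± 0.65 SE), and the prostaglandin E2 receptor gene Ptger4 had an interaction of 1.26 ± 0.54 SE, which was 1.89 ± 0.28 SE without replicate b. Most members of their lists went the other way. Of 14 complement genes 10 were negative (median -0.19, without replicate b -0.29). Of 14 genes of prostaglandin synthesis and reception 9 were negative (median -0.43, without replicate b -0.21). All 23 cell cycle genes had a positive interaction, with a median of 1.05, without replicate b 1.89, and 0 at an unadjusted p under 0.05 in either fit. Their summed level spread widely within groups, with 569 and 162 CPM in high-fat sham and 1750, 594 and 434 CPM in high-fat CIA. Of the 23 skeletal muscle genes 17 were positive (median 1.35), and their sum in regular-diet sham was 128, 128 and 1550 CPM. Of 27 ribosomal protein genes 26 were positive (median 0.21, without replicate b 0.61), and of 13 heat shock genes 11 (median 0.41), with Hsph1, a chaperone, at 1.26 ± 0.56 SE.

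**Figure D4:**
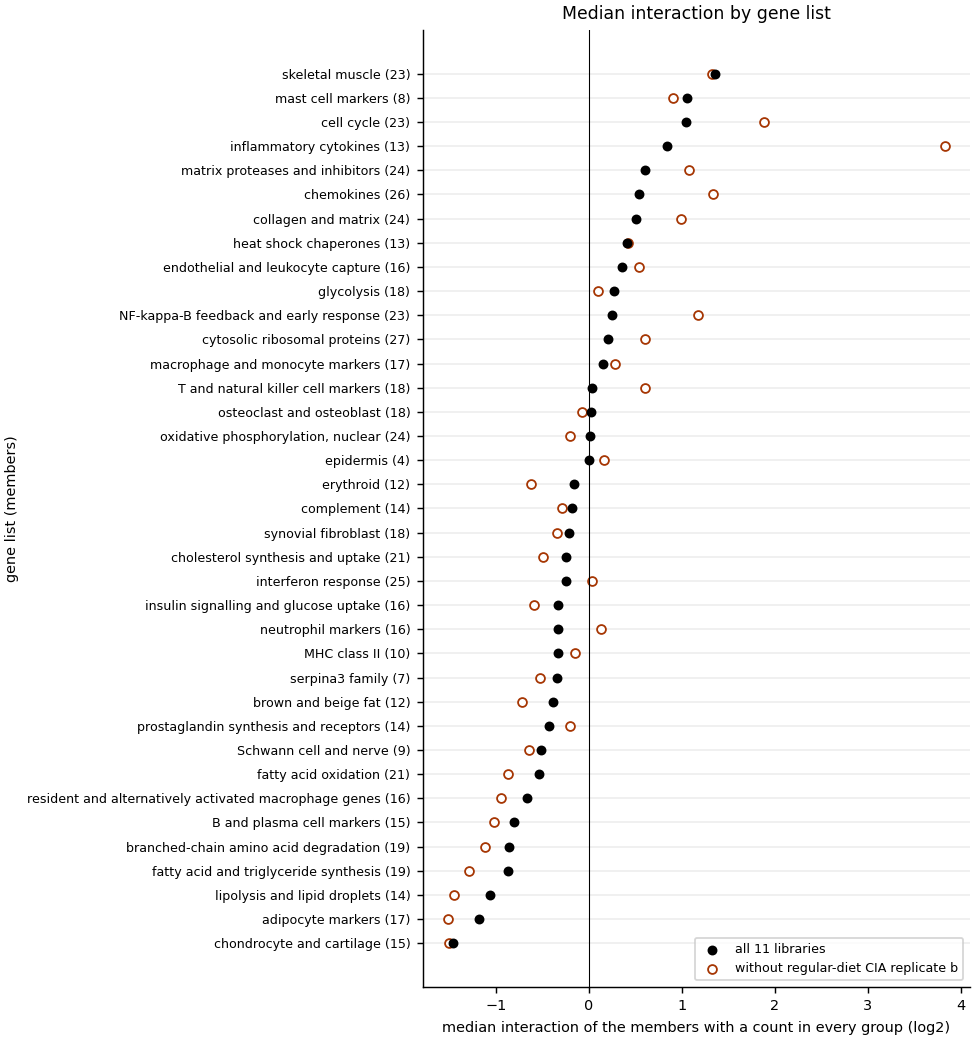
Median interaction (log2) of the tested members of 37 gene lists that had a count in every group, with all 11 libraries (black) and without regular-diet CIA replicate b (open red), with the number of such members with all libraries in brackets. Lipid and cartilage lists are negative in both, and inflammatory cytokines move from 0.84 to 3.83.

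Leaving out regular-diet CIA replicate b raised the number of genes at an unadjusted p under 0.05 from 635 to 2420 (1129 positive and 1291 negative, 16.3% of 14808 tested). Both sets shared 569 genes, 89.6% of the first and 23.5% of the second. In edgeR 0 genes passed the adjusted threshold without it, with a smallest adjusted p of 0.0714, while DESeq2 called 843. Genes at that smallest value included Trib3 (-3.01 ± 0.36 SE), Dgat2 (-2.97 ± 0.42 SE), Lss (-1.55 ± 0.21 SE), Otop1 (-2.41 ± 0.33 SE) and Ptger4 (1.89 ± 0.28 SE). Without it the medians of the neutrophil, interferon response, oxidative phosphorylation, epidermis and osteoclast and osteoblast lists were of the other sign.

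**Figure D5:**
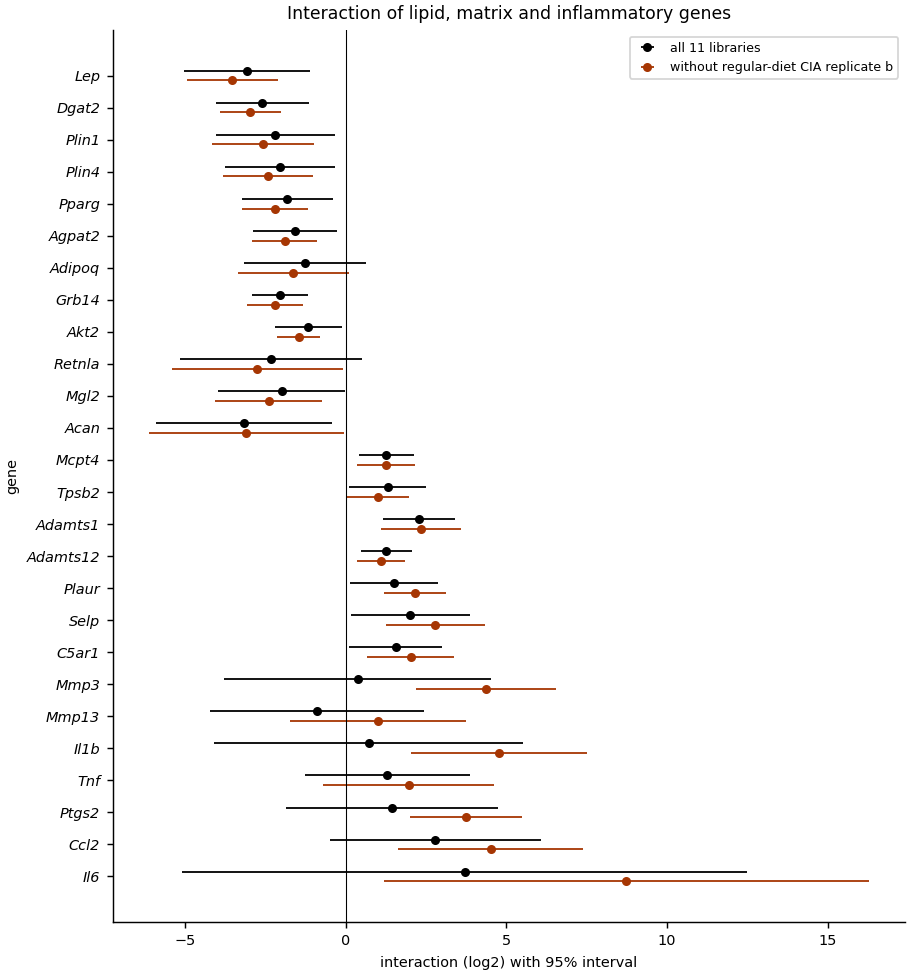
Interaction (log2, points) with its 95% interval (lines) of 26 named genes, with all 11 libraries (black) and without regular-diet CIA replicate b (red). Intervals of Il1b, Mmp3 and Ptgs2 include 0 with all libraries and lie above 0 without it, and that of Mmp13 includes 0 in both.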

How the data were processed

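RNA of 11 synovial membrane samples was sequenced after Trizol extraction with a kit of the sequencing provider, per the labels' protocols. Strand is not stated, so a gene and its antisense partner cannot be told apart. The authors deposited expected counts per gene, per the file headers, of which 11.98% were not whole (tolerance 0.001), and FPKM values, used here only in alternatives. GRCm38.p6 is the genome in the submitters' processing notes, which also name the tools RSEM 1.2.12, Bowtie2 2.2.5 and DESeq2 1.4.5 without their roles. Counts were rounded, filtered with filterByExpr, scaled with TMM and fitted with 1 mean per group in edgeR 4.0.16 (glmQLFit, robust, glmQLFTest; R 4.3.3). P-values are two-sided and Benjamini-Hochberg adjusted over 14892 genes. An SE is the absolute log2 value divided by the square root of F. CPM use TMM-scaled totals, log2 CPM a prior count of 2.

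Genes were named by rule: the 8 positive and 8 negative genes with the smallest interaction p among named genes with a mean log2 CPM of 1 or more, the 4 and 4 largest of opposite direction with an unadjusted p under 0.05, up to 3 members of each list at an unadjusted p under 0.05, and a set of genes given as values. Fasn, Acaca and Scd1 are list members named for their role after values were seen. Arg1, Chil3, Cd209f, Gata2 and Kit were also named after values were seen, to show the spread within their lists. Not all that qualify are named, and some genes are not reported here. The contrast, the 37 lists and the rule were chosen with earlier results of these data known. The alternatives were DESeq2 1.42.0, limma 3.58.1 voom, RLE scaling, 2 filters, the replicate letter as a block, limma on log2(FPKM + 1) and log2(FPKM + 0.1), and fits that drop 1 library at a time. With the data in view, DESeq2 without regular-diet CIA replicate b and edgeR without that library and high-fat sham replicate a were added, as were list medians over members with a count in every group, and with a group at 0 set to a floor of 3 counts per library. The fit was tested on simulated data. Replicates differed beyond counting noise (chi-square per degree of freedom 18.4 to 266), so precision rests on few libraries per group.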

Additional observations from a re-analysis of the deposited data

How the results depend on the processing

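The count of 0 genes past the adjusted threshold held in every alternative run with edgeR or limma, and not in DESeq2, which called 22 genes, or 843 without regular-diet CIA replicate b. The cause was not tested. The 635 genes at an unadjusted p under 0.05 ranged from 204 to 2420 when each library was left out: 204 without high-fat sham replicate b, 319 without regular-diet CIA replicate c, 387 and 408 without regular-diet sham replicates c and b, and 2420 without regular-diet CIA replicate b. That count was 2773 in DESeq2 without the last library and 1944 in edgeR without it and high-fat sham replicate a. Other tools, scalings, filters and units gave 560 to 822. On log2(FPKM + 1) it was 173 positive and 598 negative, on log2(FPKM + 0.1) 127 and 576, against 231 and 404. The labels name no pairing by replicate letter, and correlations of same-letter deviations ran from -0.43 to 0.46 over 15 pairs. Deviations within a group of 2 or 3 libraries sum to 0, so these correlations cannot exclude pairing. With the letter as a replicate block 0 genes passed and 676 had an unadjusted p under 0.05. No scaling moved the median of all genes by 0.1. Of the values of named genes under alternatives 1148 kept sign and side of the threshold, 59 passed it in DESeq2 and 11 changed sign. Of the list medians 712 moved by less and 65 moved by more than the SD of the list mean between replicates. Il1b was at -0.007 without high-fat CIA replicate b and at most 4.77. Mmp3 was at -0.239, -0.113 and -0.071 without high-fat CIA replicate a, regular-diet CIA replicate c and regular-diet CIA replicate a, and its highest value was 4.37. Mmp13, at -1.38 without regular-diet CIA replicate c, was at 0.357 in voom, 0.095 with the block, 0.456 and 0.283 on the FPKM scales, 1.01 without regular-diet CIA replicate b in edgeR and 1.009 in DESeq2, and 1.41 without high-fat sham replicate a as well. With the floor in place of groups at 0, the median was 0.836 for inflammatory cytokines (3.83 without regular-diet CIA replicate b) and 0.613 for chemokines (1.39), and over all tested members as fitted 0.941 (4.06) and 0.613 (1.39).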
